A study of Homo sapiens with 8 samples.

Results

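The genes described here encode RNA polymerase I, its initiation factor and the nucleolar proteins that build ribosomes. They are a list of 53 gene symbols, drawn up by function with earlier results of these data known, out of the 19718 coding genes in the table, and many of them are known as targets of the transcription factor MYC. Their levels were measured in an erythroleukaemia cell line labelled as secondary acute myeloid leukaemia (sAML), with and without OTX015, a small molecule that occupies the bromodomains of BET proteins. The study asked how this drug changes the transcriptome of the parental line and of a derivative that resists it.

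There were 4 groups of 2 RNA sequencing libraries each. They were HEL OTX P/R cells exposed to 1000 nM OTX015 for 8 hours, HEL OTX P/R cells left untreated, HEL92.1.7 parental cells with the same OTX015 exposure, and HEL92.1.7 parental cells left untreated. All cells were grown in RPMI1640 with 20% serum. P/R stands for persister resistant in the study's design text. The P/R line derives from HEL92.1.7, and the labels say neither how it was selected nor whether it is a clone or a pool. Below, the lines are called P/R and parental.

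Ribosome assembly starts in the nucleolus, where RNA polymerase I transcribes ribosomal DNA into a long precursor. Small nucleolar ribonucleoproteins (snoRNPs) guide its chemical modification, and a large assembly called the small subunit processome and a separate set of large subunit factors cut, fold and package it with ribosomal proteins. MYC, with its partner MAX, binds the DNA sequence CACGTG (an E-box) and is known to activate many of these genes.

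That sequence was therefore looked for near the start sites, in reference windows of 250 bases before and 50 bases after each annotated start (RefSeq, GRCh38.p14). The sequence is palindromic, so a search of 1 strand covers both. Of the 53 genes, 44 had a window in this table, and 21 of these 44 (47.7%) held CACGTG, against 1140 of 8690 tested genes (13.1%) and 2396 of all 27305 genes in the table (8.77%). Of the other ribosome assembly and RNA polymerase I genes counted further below, 22 of 96 with a window held it (22.9%). A match is only a run of letters and shows no binding. Many of the 53 are known MYC targets, so a higher share may come from the choice of the list. It is no independent support for a link to MYC. The share was 12.6% among tested genes whose windows held as many CG dinucleotides as those between the quartiles of the 44. The examples below are shown because the results return to these genes: the first 8 are genes lower under OTX015 in both lines, and the last 3 are not. Each is 30 bases, written 5′ to 3′ on the strand of the gene, with the motif in capitals.
GAR1: gggccagaggggCACGTGgcgccggtgagt
UTP20: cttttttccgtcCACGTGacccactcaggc
MYBBP1A: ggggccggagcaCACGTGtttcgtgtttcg
MRTO4: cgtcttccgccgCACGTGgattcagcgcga
UTP18: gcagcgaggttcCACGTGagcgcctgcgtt
DDX21: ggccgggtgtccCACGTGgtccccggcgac
RRP9: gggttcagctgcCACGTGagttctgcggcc
LYAR: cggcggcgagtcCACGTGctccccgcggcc
RCL1: cctgttccaaacCACGTGgacgcgtctggg
PWP2: tgagctgcggcaCACGTGcgacggccgtga
FBL: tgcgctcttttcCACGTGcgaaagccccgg

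These windows lie at chr4:109815781-109815810 on the plus strand for GAR1, chr12:101280083-101280112 on the plus strand for UTP20 and chr17:4555340-4555369 on the minus strand for MYBBP1A. Those of MRTO4 and UTP18 lie at chr1:19251807-19251836 and chr17:51260538-51260567 on the plus strand. Those of DDX21 and RRP9 lie at chr10:68956604-68956633 on the plus strand and chr3:51941892-51941921 on the minus strand. The LYAR window is chr4:4290068-4290097 on the minus strand. The windows of genes not lower in both lines are chr9:4792936-4792965 on the plus strand (RCL1), chr21:44107388-44107417 on the plus strand (PWP2) and chr19:39846356-39846385 on the minus strand (FBL). The flanks differ from gene to gene, and only the 6 capital letters are shared. Of the 24 matches for which 30 bases could be cut, 19 lay within 50 bases of the start, 10 of the 24 upstream of it and 14 downstream.

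Values are taken to be FPKM, fragments counted relative to transcript length and library size, so that levels can be compared between genes; the unit was inferred from the values and tools. The authors had quantile normalized them, so every library holds the same set of values, totals 678133 FPKM and has a median of 13.8 FPKM over the tested genes. Depth is therefore unknown, no counting error can be given, and a change in the total RNA of a cell cannot be seen. Tests covered the 11255 genes that reached 1 FPKM in 2 or more libraries. Changes are differences of log2(FPKM + 1), which understate the change of low genes, and a gene was called when its adjusted p from limma was under 0.05. Replicates correlated at 0.996 to 0.997 across genes. With 2 libraries against 2, an exact permutation test of a single gene cannot give less than 0.333, so the calls rest on limma's spread shared between genes. In bulk RNA, fewer cells of a type and less RNA per cell cannot be told apart.

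Cell identity was checked with marker genes. All 10 erythroid markers (globins, glycophorins, GATA1 and others) were at 1 FPKM or more in every library, as were 5 of 7 megakaryocyte and 5 of 5 general blood cell markers. CD3D, CD3G, MS4A1, KRT5, KRT19 and COL1A2 were at 0 in every library, 5 of 6 lymphocyte markers and 5 of 7 stromal and endothelial markers stayed under 1 FPKM, and so did 4 of 6 epithelial markers. Some sums moved with the groups. The erythroid sum was 29444 to 29677 FPKM in P/R cells with OTX015 and 27190.2 to 27413 FPKM in untreated P/R cells, and 29869.7 to 30119.6 FPKM in parental cells with OTX015 and 28099 to 28129 FPKM in untreated parental cells. The megakaryocyte sum was 631 to 702 FPKM and 776 to 782 FPKM in the same P/R groups, and 484 to 496 FPKM and 549.7 to 578 FPKM in the same parental groups. Its largest part, ITGA2B, was lower in P/R than in parental cells of the same treatment, and the other megakaryocyte markers were higher. PF4 had 43.2 to 50.4 FPKM in the P/R libraries and 1.23 to 2.66 FPKM in the parental ones. With OTX015, ITGB3 was higher and GP1BA, GP9, PF4 and SELP were lower in both lines. Of the blood cell markers, LYL1 and TAL1 were higher in P/R cells. KIT was lower, at 1.35 to 2.22 FPKM against 9.79 to 13.4 FPKM. The epithelial sum, made up by KRT8 and KRT18, was 90.1 to 110.4 FPKM in the 4 P/R libraries and 17.1 to 20.4 FPKM in the 4 parental libraries. The part of these shifts in the results below was not tested.

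All 53 genes were expressed at 1 FPKM or more in every library and all were tested. The median of the 53 was 45.7 and 49.6 FPKM in P/R cells with OTX015, against 62.3 and 63.2 FPKM in untreated P/R cells. It was 46.6 and 47.1 FPKM in parental cells with OTX015, against 60.7 and 64.1 FPKM in untreated parental cells. The treated libraries were thus the 4 lowest, with no overlap in either line, while the median tested gene was fixed by the normalization.

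OTX015 lowered most of these genes in both lines. In P/R cells 36 of the 53 fell (67.9%), none rose and 17 were not called, where 21.8% of all tested genes fell and 22.5% rose. In parental cells 38 of 53 fell (71.7%), 2 rose and 13 were not called, where 24.7% of all tested genes fell and 25.7% rose. The median log2 change was -0.34 in P/R cells, with a range of -0.8 to 0.15, and -0.28 in parental cells, with a range of -1.05 to 0.8, beside medians of 0.01 and 0.02 over all tested genes. The count of genes that fell lay between 29 and 36 in P/R cells and between 30 and 39 in parental cells when each library was left out in turn. The 2 rises in parental cells, of NOLC1 and PWP2, were both lost without the first treated and without the second untreated parental library.

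**Figure D1:**
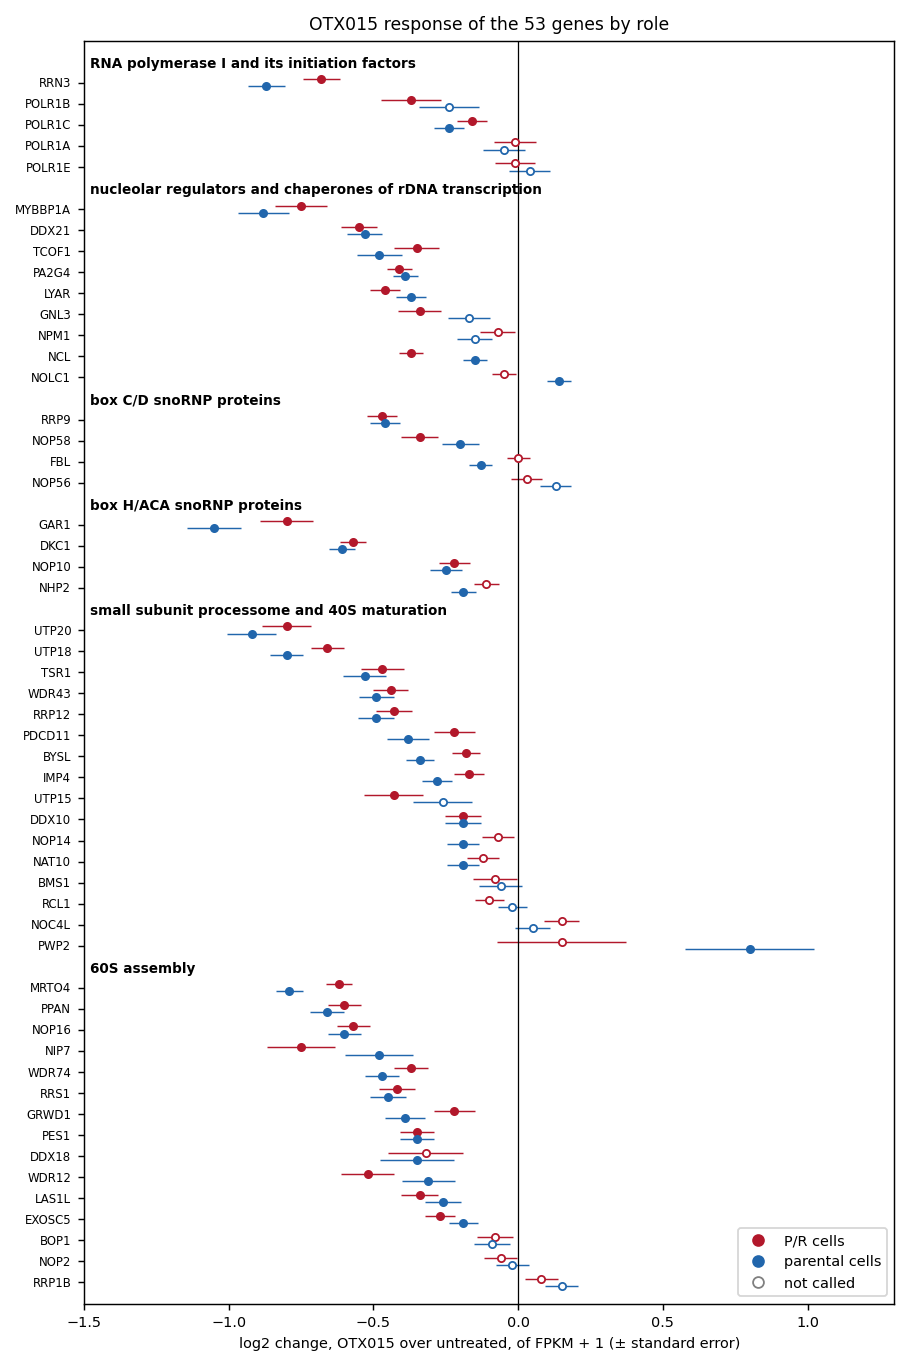
Log2 change of FPKM + 1 under OTX015 (x axis) for each of the 53 genes (rows), grouped by role. Points are the P/R and parental estimates with their standard errors, and open points were not called. Most points lie left of 0 in both lines, with GAR1 lowest in parental cells at -1.05 and PWP2 farthest right in parental cells at 0.8.

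Among the RNA polymerase I genes, the initiation factor RRN3 had the largest change in each line. RRN3, which recruits the polymerase to the ribosomal DNA promoter, had 18.2 and 18.4 FPKM in P/R cells with OTX015, against 28.9 and 30.7 FPKM in untreated P/R cells. In parental cells it had 17.6 and 18.4 FPKM with OTX015, against 32.9 and 34.4 FPKM untreated. All 4 treated libraries were below all 4 untreated ones. RRN3 fell by 38.7% in P/R cells (log2 change -0.68, SE 0.0634, adjusted p = 5.03e-05) and by 46.5% in parental cells (log2 change -0.87, SE 0.0634, adjusted p = 8.83e-06). RRN3 has 2 named pseudogenes, and reads may have been divided between copies. The same holds for PA2G4 and DDX18 (5 named pseudogenes each), NOP56 and NIP7 (3 each), NCL, NHP2, DDX10 and PES1 (2 each) and LYAR (1).

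The catalytic core subunit POLR1A stayed at 21.7 and 20.4 FPKM with OTX015 and 21.5 and 20.9 FPKM untreated in P/R cells, and at 20 and 20.7 FPKM with OTX015 and 20.1 and 22.3 FPKM untreated in parental cells. Its groups overlapped in both lines, and the log2 changes of -0.01 and -0.05 were not called (adjusted p = 0.917 in P/R cells and 0.567 in parental cells). POLR1E, a subunit of RNA polymerase I alone, had log2 changes of -0.01 (P/R) and 0.04 (parental), not called. POLR1B, which completes the catalytic core, had 25.1 and 25.5 FPKM with OTX015 and 34.7 and 31.5 FPKM untreated in P/R cells, where it fell (log2 change -0.37, SE 0.104, adjusted p = 0.0166). In parental cells it had 25.9 and 24.1 FPKM with OTX015 and 26.3 and 33.6 FPKM untreated, and the log2 change of -0.24 was not called (adjusted p = 0.0816), though it was without the first untreated parental library (-0.41). POLR1C, shared with RNA polymerase III, fell in both lines by small amounts, with log2 changes of -0.16 (P/R) and -0.24 (parental). Its call in P/R cells was lost on leaving out any of the 4 P/R libraries (adjusted p of 0.0523 to 0.137), and that of POLR1B in P/R cells on leaving out either treated or the first untreated P/R library (adjusted p of 0.0587 to 0.103). Counted together, 3 of these 5 genes fell in P/R cells and 2 of 5 in parental cells.

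Among the nucleolar regulators and chaperones, 7 of 9 fell in P/R cells and 6 of 9 fell in parental cells, where 1 rose. MYBBP1A, a nucleolar protein that regulates ribosomal DNA transcription and precursor processing, had 41.5 and 34.9 FPKM in P/R cells with OTX015, against 66.2 and 63 FPKM untreated. In parental cells it had 21.5 and 24.4 FPKM with OTX015, against 44.2 and 41.7 FPKM untreated. The treated libraries were lower in both lines, and both P/R groups were above the parental group of the same treatment. The fall was 40.9% in P/R cells (log2 change -0.75, SE 0.0887, adjusted p = 0.000181) and 46.6% in parental cells (log2 change -0.88, SE 0.0887, adjusted p = 5.17e-05).

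DDX21, an RNA helicase that couples ribosomal DNA transcription to processing, had 40.8 and 43 FPKM with OTX015 and 62.3 and 61.2 FPKM untreated in P/R cells, and 41.3 and 42.2 FPKM with OTX015 and 57.9 and 64.1 FPKM untreated in parental cells. It fell by nearly the same amount, 32.1% in P/R cells and 31.6% in parental cells (adjusted p = 0.000125 and 0.000103). TCOF1, the treacle scaffold of the nucleolus, fell by 0.35 on the log2 scale in P/R cells and by 0.48 in parental cells. LYAR, a nucleolar zinc finger protein, fell by 0.46 in P/R cells and by 0.37 in parental cells. PA2G4, a nucleolar RNA-binding protein also known as EBP1, fell by 0.41 in P/R cells and by 0.39 in parental cells. GNL3 (nucleostemin), a GTP-binding protein, fell in P/R cells (log2 change -0.34, adjusted p = 0.00464) and had a log2 change of -0.17 in parental cells that was not called (adjusted p = 0.0838).

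NPM1 and NCL were the most abundant of the 53 genes. NPM1 (nucleophosmin), a chaperone of ribosomal proteins and histones, stood at 1759 and 1783 FPKM in P/R cells with OTX015 and 1876 and 1848 FPKM in untreated P/R cells, and at 1559 and 1783 FPKM in parental cells with OTX015 and 1783 and 1929 FPKM in untreated parental cells. Its log2 changes of -0.07 (P/R) and -0.15 (parental) were not called, though the parental one was without the second treated (-0.25) or first untreated (-0.21) parental library, and with 45 named pseudogenes its level is uncertain. NCL (nucleolin), which binds the precursor RNA, had 810.3 and 786 FPKM with OTX015 and 1066 and 1003 FPKM untreated in P/R cells, and 849.8 and 849.8 FPKM with OTX015 and 967 and 918 FPKM untreated in parental cells. It fell by 22.9% in P/R cells (log2 change -0.37, adjusted p = 0.000135) and by 9.82% in parental cells (log2 change -0.15, adjusted p = 0.0158). The parental call of NCL was lost on leaving out either treated or the first untreated parental library (adjusted p of 0.0535 to 0.107).

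NOLC1, a chaperone of snoRNPs that binds treacle, fell in neither line. It had 127 and 132 FPKM with OTX015 and 135 and 133 FPKM untreated in P/R cells, a log2 change of -0.05 that was not called (adjusted p = 0.413). In parental cells it had 138 and 136 FPKM with OTX015 and 123 and 125 FPKM untreated, and it rose (log2 change 0.14, SE 0.0419, adjusted p = 0.0174). The treated libraries were above the untreated ones in parental cells and below them in P/R cells. The parental call was lost on leaving out the first treated or either untreated parental library (adjusted p of 0.0513 to 0.0825) and with no variance trend (adjusted p = 0.0685).

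The box H/ACA snoRNP proteins, which turn uridine of ribosomal RNA into pseudouridine, fell in 3 of 4 cases in P/R cells and in 4 of 4 cases in parental cells. GAR1 had 13.5 and 13.1 FPKM with OTX015 and 25.3 and 22.5 FPKM untreated in P/R cells, and 10.8 and 12.6 FPKM with OTX015 and 24.1 and 26.5 FPKM untreated in parental cells. No treated library reached an untreated one. GAR1 had the largest parental change of the 53 in size, a fall of 53.7% (log2 change -1.05, SE 0.0925, adjusted p = 2.45e-05), beside 44.5% in P/R cells (log2 change -0.8, SE 0.0925, adjusted p = 0.000153).

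DKC1 (dyskerin), the pseudouridine synthase itself, had 73.3 and 74.6 FPKM with OTX015 and 108 and 112 FPKM untreated in P/R cells, and 66.4 and 66.7 FPKM with OTX015 and 101 and 103 FPKM untreated in parental cells. Dyskerin messenger RNA fell by 32.8% in P/R cells (adjusted p = 2.07e-05) and by 34.8% in parental cells (adjusted p = 9.1e-06). The small core protein NOP10 fell by 0.22 in P/R cells and by 0.25 in parental cells on the log2 scale, the P/R call being lost without the first treated or first untreated P/R library (adjusted p = 0.0668 and 0.0547). NHP2, the remaining core protein, had 204 and 199 FPKM with OTX015 and 211 and 225 FPKM untreated in P/R cells, a log2 change of -0.11 that was not called (adjusted p = 0.0634). In parental cells NHP2 had 158 and 160.2 FPKM with OTX015 and 180 and 183 FPKM untreated, and it fell (log2 change -0.19, SE 0.0434, adjusted p = 0.00595).

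The box C/D snoRNP proteins, most of which act in methylation of ribosomal RNA, gave mixed calls, with 2 of 4 lower in P/R cells and 3 of 4 lower in parental cells. RRP9, which binds the snoRNA of the small subunit processome, had 50.3 and 51.5 FPKM with OTX015 and 69.6 and 71.6 FPKM untreated in P/R cells, and 65.9 and 60.7 FPKM with OTX015 and 87.9 and 86.9 FPKM untreated in parental cells. It fell by 28% in P/R cells (log2 change -0.47, adjusted p = 0.000148) and by 27.6% in parental cells (log2 change -0.46, adjusted p = 0.000115). NOP58, a core protein, fell by 0.34 in P/R cells and by 0.2 in parental cells on the log2 scale. The parental call of NOP58 was lost on leaving out either treated or the second untreated parental library (adjusted p of 0.0822 to 0.141).

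The methyltransferase FBL (fibrillarin) had 384 and 390.1 FPKM with OTX015 and 384 and 393 FPKM untreated in P/R cells, a log2 change of 0 (adjusted p = 0.933). In parental cells it had 445 and 418 FPKM with OTX015 and 474 and 468 FPKM untreated, and it fell (log2 change -0.13, SE 0.0401, adjusted p = 0.0262). That call was lost on leaving out the second treated or either untreated parental library (adjusted p of 0.0653 to 0.172). NOP56, the other scaffold of these particles, had 254 and 259.9 FPKM with OTX015 and 258 and 244 FPKM untreated in P/R cells, and 255 and 276 FPKM with OTX015 and 250 and 233 FPKM untreated in parental cells. Its log2 changes of 0.03 (P/R) and 0.13 (parental) were not called (adjusted p = 0.632 and 0.0622). The parental one was called higher without the first treated (0.19) or first untreated parental library (0.18).

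**Figure D2:**
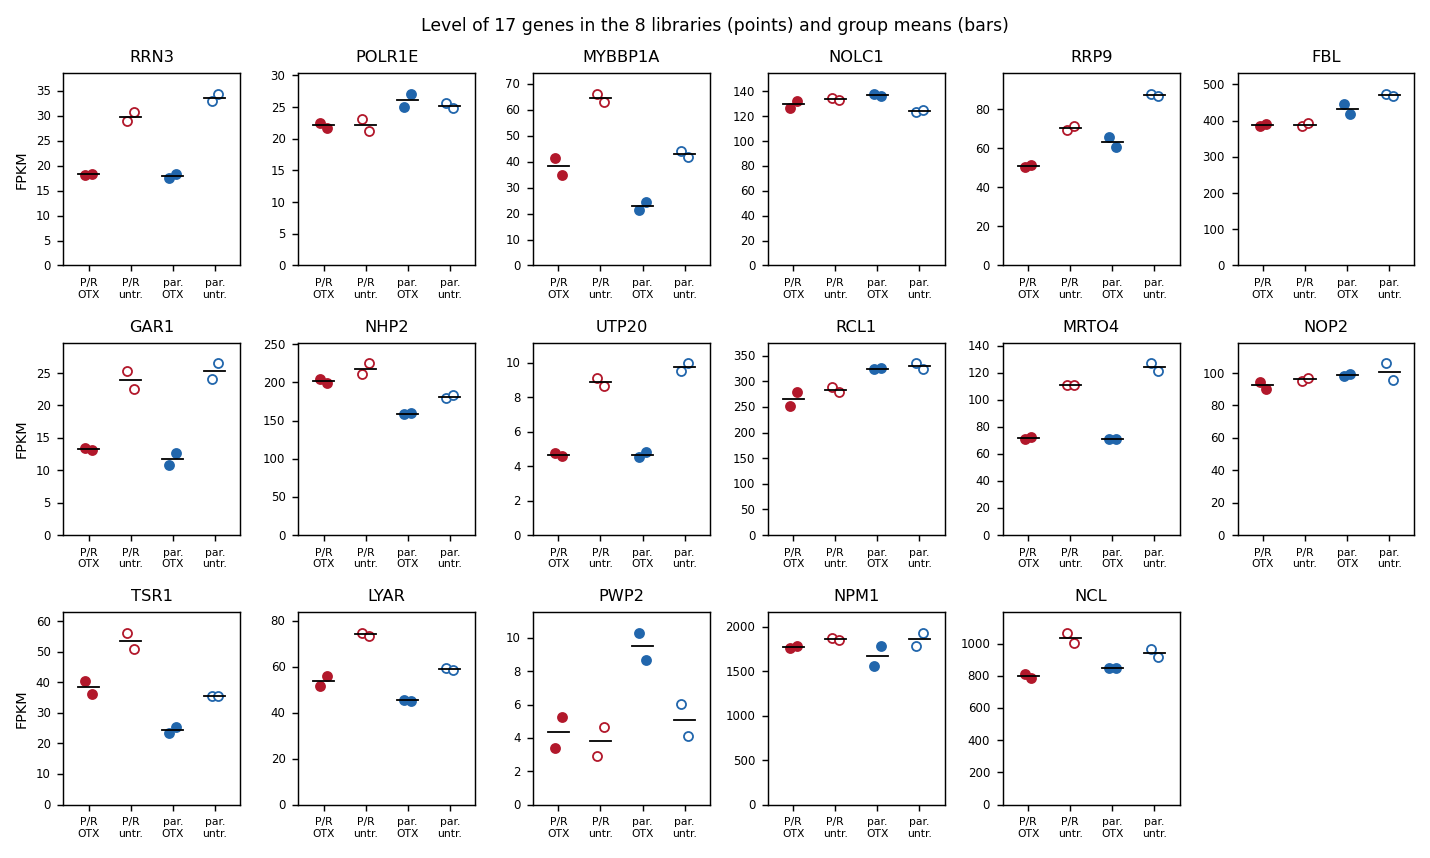
FPKM (y axis) of 17 genes in the 8 libraries, with a panel for each gene and the groups along the x axis. Points are libraries and bars are group means; both treated groups lie under their untreated groups for RRN3, GAR1, UTP20 and MRTO4, whereas MYBBP1A and TSR1 are also higher in P/R cells.

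In the small subunit processome and small subunit maturation, 10 of 16 genes fell in P/R cells and 11 of 16 fell in parental cells, where 1 rose. UTP20, a very large scaffold protein, had 4.74 and 4.58 FPKM with OTX015 and 9.11 and 8.64 FPKM untreated in P/R cells, and 4.53 and 4.81 FPKM with OTX015 and 9.49 and 9.96 FPKM untreated in parental cells. The treated and untreated libraries were far apart in each line. The lines overlapped under OTX015, while both untreated P/R libraries were below both untreated parental ones. UTP20 fell by 47.5% in P/R cells (log2 change -0.8, SE 0.085, adjusted p = 9.52e-05) and by 52% in parental cells (log2 change -0.92, SE 0.085, adjusted p = 3.15e-05).

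UTP18, a WD-repeat subunit of the processome, had 33 and 35 FPKM with OTX015 and 52.6 and 56 FPKM untreated in P/R cells, and 33.1 and 32.5 FPKM with OTX015 and 57.5 and 58.6 FPKM untreated in parental cells. It fell by 37.4% in P/R cells (adjusted p = 3.19e-05) and by 43.4% in parental cells (adjusted p = 7.42e-06). TSR1, a late maturation factor of the small subunit, had 40.5 and 36.3 FPKM with OTX015 and 56.2 and 51 FPKM untreated in P/R cells, and 23.4 and 25.3 FPKM with OTX015 and 35.6 and 35.5 FPKM untreated in parental cells. It fell by 28.3% in P/R cells and by 31.5% in parental cells, from levels that differed between the lines. WDR43, a processome subunit, fell by 0.44 in P/R cells and by 0.49 in parental cells on the log2 scale, and RRP12, an export factor in yeast, by 0.43 and 0.49.

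Smaller falls called in both lines were those of the processome protein PDCD11 (log2 change -0.22 in P/R cells and -0.38 in parental cells), BYSL, a maturation factor of the small subunit (-0.18 and -0.34), the processome protein IMP4 (-0.17 and -0.28) and the helicase DDX10 (-0.19 and -0.19). Each lost its P/R call on leaving out 1 of several P/R libraries: PDCD11 without the second treated or first untreated one (adjusted p of 0.157 to 0.216), BYSL without the second treated or either untreated one (0.0631 to 0.083), IMP4 without either treated or the second untreated one (0.0775 to 0.185) and DDX10 without the second treated or either untreated one (0.084 to 0.139). DDX10 also lost its parental call in 5 of 8 such fits (0.0503 to 0.171). The processome protein NOP14 and the RNA acetyltransferase NAT10 fell in parental cells alone (-0.19 each), with uncalled log2 changes of -0.07 and -0.12 in P/R cells. Both parental calls were lost without the first treated or first untreated parental library, and that of NAT10 also without the second treated one (adjusted p of 0.0541 to 0.117). UTP15, a processome subunit, fell in P/R cells (log2 change -0.43, adjusted p = 0.00811), with an uncalled log2 change of -0.26 in parental cells (adjusted p = 0.0617). Its call was lost without the second untreated P/R library (adjusted p = 0.0715).

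The remaining small subunit genes were not lower in either line. RCL1, a processome protein related to RNA cyclases, had 252 and 279 FPKM with OTX015 and 288 and 279 FPKM untreated in P/R cells, and 324 and 325 FPKM with OTX015 and 335 and 324 FPKM untreated in parental cells. Its log2 changes of -0.1 (P/R) and -0.02 (parental) were not called, though the P/R one was without the second treated P/R library (-0.17). NOC4L had uncalled log2 changes of 0.15 (P/R) and 0.05 (parental). BMS1, a GTPase of the processome with 17 named pseudogenes, had -0.08 and -0.06.

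PWP2, a WD-repeat subunit of the processome, had the lowest mean level of the 53 genes and the largest standard error. It had 3.4 and 5.25 FPKM with OTX015 and 2.94 and 4.65 FPKM untreated in P/R cells, where the groups overlapped and the log2 change of 0.15 was not called. In parental cells it had 10.3 and 8.7 FPKM with OTX015 and 6.06 and 4.13 FPKM untreated. It rose there (log2 change 0.8, SE 0.223, adjusted p = 0.0149). The call was lost without the first treated parental library (log2 change 0.69, adjusted p = 0.0826), without the second untreated one (0.57, adjusted p = 0.11) and with no filter on low values (adjusted p = 0.0695).

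In large subunit assembly, 11 of 15 genes fell in P/R cells and 12 of 15 in parental cells. MRTO4, whose yeast counterpart holds the place of a ribosomal stalk protein, had 71.1 and 72.4 FPKM with OTX015 and 111 and 111 FPKM untreated in P/R cells, and 71.1 and 71.2 FPKM with OTX015 and 127 and 121 FPKM untreated in parental cells. Replicates were close and the groups far apart. MRTO4 fell by 35.4% in P/R cells (log2 change -0.62, SE 0.0451, adjusted p = 1.3e-05) and by 42.5% in parental cells (log2 change -0.79, SE 0.0451, adjusted p = 2.32e-06), which were the smallest adjusted p-values of the 53 in each line.

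PPAN averaged 124 ± 9.9 FPKM with OTX015 and 188 ± 4.9 FPKM untreated in P/R cells, and 124 ± 0.313 FPKM with OTX015 and 197 ± 7.23 FPKM untreated in parental cells (SD, n = 2 each). It fell by 34.2% in P/R cells and by 37.1% in parental cells. A read-through transcript of PPAN and its neighbour is listed apart in the table, and reads may have been divided between them. NOP16 fell by 33% in P/R cells and by 34.5% in parental cells, and RRS1, which in yeast helps to bring the smallest ribosomal RNA into the large subunit, by 25.8% and 27%. NIP7 had 22.9 and 18.6 FPKM with OTX015 and 37.5 and 33.6 FPKM untreated in P/R cells, and 26.7 and 21.3 FPKM with OTX015 and 33.3 and 34.2 FPKM untreated in parental cells, a fall of 41.5% in P/R cells (adjusted p = 0.000877) and of 28.8% in parental cells (adjusted p = 0.00788; 0.0628 without the second treated parental library).

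PES1, BOP1 and WDR12 form the PeBoW complex, in which PES1 and WDR12 fell and BOP1 was not called. PES1 had 67.8 and 60.9 FPKM with OTX015 and 81.9 and 82.1 FPKM untreated in P/R cells, and 69.8 and 69.8 FPKM with OTX015 and 91.3 and 86.6 FPKM untreated in parental cells, with a log2 change of -0.35 in each line (adjusted p = 0.00128 in P/R cells and 0.00106 in parental cells). WDR12 fell by 0.52 in P/R cells and by 0.31 in parental cells on the log2 scale, the second call being lost without the second treated or either untreated parental library (adjusted p of 0.0677 to 0.149). BOP1 had 65.2 and 61.8 FPKM with OTX015 and 70.8 and 64.1 FPKM untreated in P/R cells, and 68.6 and 72.7 FPKM with OTX015 and 74.8 and 75.5 FPKM untreated in parental cells. Its log2 changes of -0.08 (P/R) and -0.09 (parental) were not called (adjusted p = 0.291 and 0.257), and no test of PES1 against BOP1 was made.

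WDR74 (log2 change -0.37 in P/R cells and -0.47 in parental cells), the histone-binding GRWD1 (-0.22 and -0.39), LAS1L, an endonuclease subunit (-0.34 and -0.26), and the exosome subunit EXOSC5 (-0.27 and -0.19) fell in both lines. GRWD1 lost its P/R call without the second treated or either untreated P/R library (adjusted p of 0.0819 to 0.168). LAS1L lost its parental call without the first treated parental library (adjusted p = 0.0594), as did EXOSC5, also without the first untreated one (adjusted p = 0.0534 and 0.0615). The helicase DDX18 had 44.7 and 63.7 FPKM with OTX015 and 68.6 and 65.2 FPKM untreated in P/R cells, a wide spread at an uncalled log2 change of -0.32 (called without the second treated P/R library, at -0.57). In parental cells DDX18 fell (log2 change -0.35, adjusted p = 0.0445), a call lost in 6 of the 8 fits that left out a library. The methyltransferase NOP2 stayed at 94.4 and 90.3 FPKM with OTX015 and 95.4 and 96.7 FPKM untreated in P/R cells, and at 98.4 and 99.5 FPKM with OTX015 and 106 and 95.5 FPKM untreated in parental cells, with log2 changes of -0.06 and -0.02 that were not called. RRP1B had log2 changes of 0.08 in P/R cells and 0.15 in parental cells, and neither was called.

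The calls of the lines were set side by side. The 2 treatment comparisons share no library. Of the 53 genes, 33 fell in both lines, which is 91.7% of the 36 that fell in P/R cells and 86.8% of the 38 that fell in parental cells. Over all tested genes 2051 fell in both lines, 83.7% of the 2450 that fell in P/R cells and 73.9% of the 2777 that fell in parental cells. The log2 changes of the lines correlated across the 53 genes at r = 0.893 (Spearman's rho 0.913), beside r = 0.891 over all tested genes; genes are not independent replicates. POLR1B, GNL3 and UTP15 were called in P/R cells alone, and FBL, NHP2, NOP14, NAT10 and DDX18 in parental cells alone. The other 12 were lower in neither line.

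**Figure D3:**
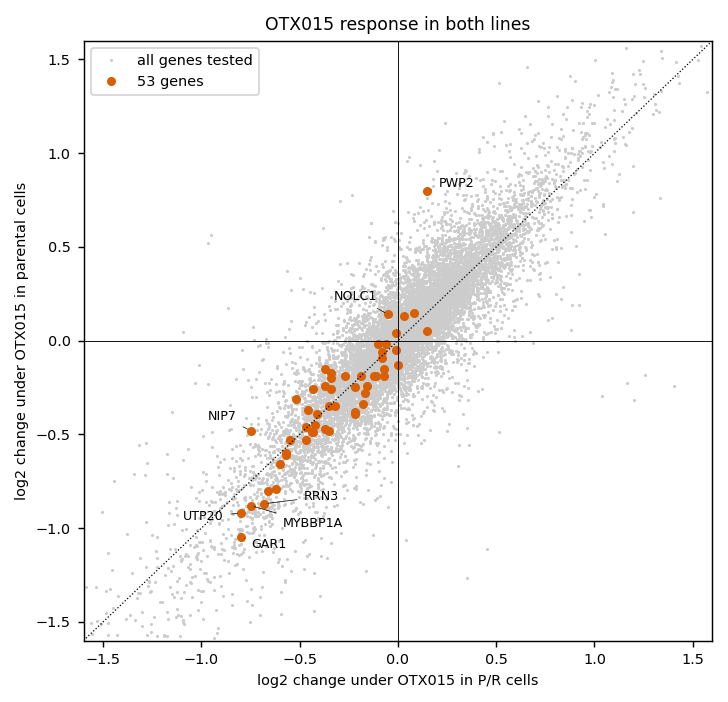
Log2 change under OTX015 in P/R cells (x axis) against that in parental cells (y axis), with the 53 genes in orange over all tested genes in grey; some grey genes lie beyond the axes. The orange points lie mainly at the lower left, where 47 of 53 are negative in both lines, and along the diagonal.

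The difference between the responses was tested directly, as the P/R change minus the parental change. None of the 53 genes passed (smallest adjusted p = 0.272, NCL), and 4 had an unadjusted p under 0.05. Over all tested genes 7 were called higher (0.0622%) and 2 lower (0.0178%), with 1080 at an unadjusted p under 0.05. The 4 genes were NCL (difference -0.23, 95% interval -0.36 to -0.09), NOLC1 (-0.19), MRTO4 (0.17) and BYSL (0.16). The outermost 95% limits over the 53 genes were -1.35 and 0.54, and they come from different genes, so no single gene's interval spans them. Interval widths differed between genes, and small differences between the lines could not be detected for every gene. The genes called in 1 line alone are therefore not shown to respond differently.

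MYC itself fell by less than the median of these genes in each line. It had 386 and 394 FPKM with OTX015 and 461 and 461 FPKM untreated in P/R cells (log2 change -0.24, adjusted p = 0.000454), and 434 and 434 FPKM with OTX015 and 501 and 501 FPKM untreated in parental cells (log2 change -0.21, adjusted p = 0.000868). Quantile normalization gives genes of equal rank equal values, so the spread of MYC may be understated. MYC was also lower in P/R than in parental cells, untreated (log2 difference -0.12, adjusted p = 0.0292) and under OTX015 (-0.16, adjusted p = 0.00876). The genes with a promoter window were counted with and without CACGTG. In P/R cells 15 of 21 genes with the motif fell (71.4%) and 17 of 23 without it (73.9%), and in parental cells 17 of 21 (81%) and 16 of 23 (69.6%). Over all tested genes with a window the shares were 26.6% with and 20.9% without the motif in P/R cells, and 29.1% and 23.8% in parental cells. GAR1, UTP20, MRTO4 and MYBBP1A, whose windows are printed above, were among the strongest falls, while RCL1 and PWP2, whose motifs begin at positions 5 and 2 with the start counted as 1, were lower in neither line. RRN3, DKC1, PPAN, NOP16 and NIP7 fell in both lines and had no CACGTG in their windows. Among the genes described here that had a window, the median log2 change in P/R cells was -0.34 with the motif and -0.37 without it. In parental cells these medians were -0.34 and -0.26.

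Fewer genes were called between the lines. Without drug, 5 of the 53 were higher (9.43%) and 10 lower (18.9%) in P/R than in parental cells, where 11.7% and 11.9% of all tested genes were called in these directions. Under OTX015, 6 were higher (11.3%) and 10 lower (18.9%), where 12.7% and 11.7% of all tested genes were called. The median difference of the 53 was -0.08 untreated and -0.06 under OTX015 on the log2 scale. LYAR, MYBBP1A, NHP2 and TSR1 were higher in P/R cells in both states, and FBL, NOC4L, RCL1, RRP1B and RRP9 lower in both. These comparisons use the same libraries as those of OTX015. The count of lower genes was fragile: untreated it was 3 without the first parental or the first P/R library and 5 without the second P/R library, and under OTX015 it was 3 and 6 without the first and the second parental library and 5 without the first P/R library.

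TSR1 and MYBBP1A had the largest untreated line differences among called genes, and both lie on chromosome 17. The levels above put TSR1 1.51-fold higher in untreated P/R than in untreated parental cells (log2 difference 0.58, SE 0.0742, adjusted p = 0.000525) and 1.58-fold higher under OTX015 (0.63, adjusted p = 0.000268). MYBBP1A was 1.5-fold higher untreated (0.58, SE 0.0887, adjusted p = 0.00142) and 1.66-fold higher under OTX015 (0.71, adjusted p = 0.000397). Their neighbours were higher too. Neighbours are the 10 tested genes on each side in order of start position. Of the 20 around MYBBP1A, 18 were called higher in untreated P/R cells, with a median log2 difference of 0.51, and 17 under OTX015, with a median of 0.51. Of the 20 around TSR1, 14 were called higher in each state, with medians of 0.54 untreated and 0.49 under OTX015. Gene order came from a GRCh38 annotation matched by Ensembl identifier. The part of these neighbours' shift in the results for TSR1 and MYBBP1A was not tested. UTP18, also on chromosome 17, was not called between the untreated lines (log2 difference -0.1, adjusted p = 0.27). Its 20 neighbours had a median difference of 0.01 untreated.

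The neighbours of LYAR and NHP2 differed less. LYAR was higher untreated (log2 difference 0.33, adjusted p = 0.00186) and under OTX015 (0.24, adjusted p = 0.0092; 0.0514 without the second treated parental library), and the 20 genes around it had median differences of 0 and 0.01. NHP2 was higher by 0.26 untreated (adjusted p = 0.00213) and by 0.34 under OTX015 (adjusted p = 0.00047), and its 20 neighbours had medians of 0.16 and 0.14, with 7 and 9 of them called higher. NCL was called higher untreated (0.13, adjusted p = 0.0463), a call lost in 6 of 8 fits without a library, and not under OTX015 (-0.09, adjusted p = 0.155). TCOF1 (0.3) and DKC1 (0.15) were called higher under OTX015 and not untreated (0.17 and 0.11). The TCOF1 call was lost without the first library of either treated group (adjusted p = 0.125 in each fit), and that of DKC1 without any 1 of the 8 libraries (adjusted p of 0.0505 to 0.135).

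Among the genes lower in P/R cells, RRP9 differed by -0.3 untreated (adjusted p = 0.00287) and -0.31 under OTX015 (adjusted p = 0.00253). FBL differed by -0.28 (adjusted p = 0.00103) and -0.16 (adjusted p = 0.0206), NOC4L by -0.3 and -0.21, RCL1 by -0.22 and -0.29, and RRP1B by -0.23 and -0.29. Of these 10 calls, those of RRP9 in both states, of FBL untreated and of RCL1 and RRP1B under OTX015 stood whichever library was left out. FBL under OTX015 was lost without the first library of either treated group (adjusted p of 0.0752 to 0.133), RCL1 untreated without the first parental or second P/R untreated library (0.0857 to 0.0943), and RRP1B untreated without any of the 4 untreated libraries (0.0607 to 0.102). NOC4L was lost untreated without the first untreated P/R library (adjusted p = 0.0582) and under OTX015 without any of the 4 treated libraries (0.054 to 0.139). PWP2 had the largest difference under OTX015 in size, -0.99 (SE 0.223, adjusted p = 0.0104), a call lost without the first parental library (-0.89, adjusted p = 0.0707) and without the first P/R library (-0.74, adjusted p = 0.0873). Untreated its difference of -0.35 was not called (adjusted p = 0.302). PWP2 and RRP1B both lie on chromosome 21, so their neighbours may overlap. Of the 20 around PWP2, 8 were lower in each state, with medians of -0.14, and 3 untreated and 2 under OTX015 were higher. Of the 20 around RRP1B, 5 untreated and 6 under OTX015 were lower, and 4 and 3 higher (medians -0.12 and -0.14). The neighbours of RRP9 had medians of 0.08 and 0.18. The part of these neighbours in the results was not tested. POLR1C, RRP12, MRTO4, GRWD1 and WDR74 were called lower in untreated cells alone, and POLR1E, GNL3, UTP15, PWP2 and EXOSC5 under OTX015 alone. Each of these 10 calls was lost on leaving out at least 1 library.

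**Figure D4:**
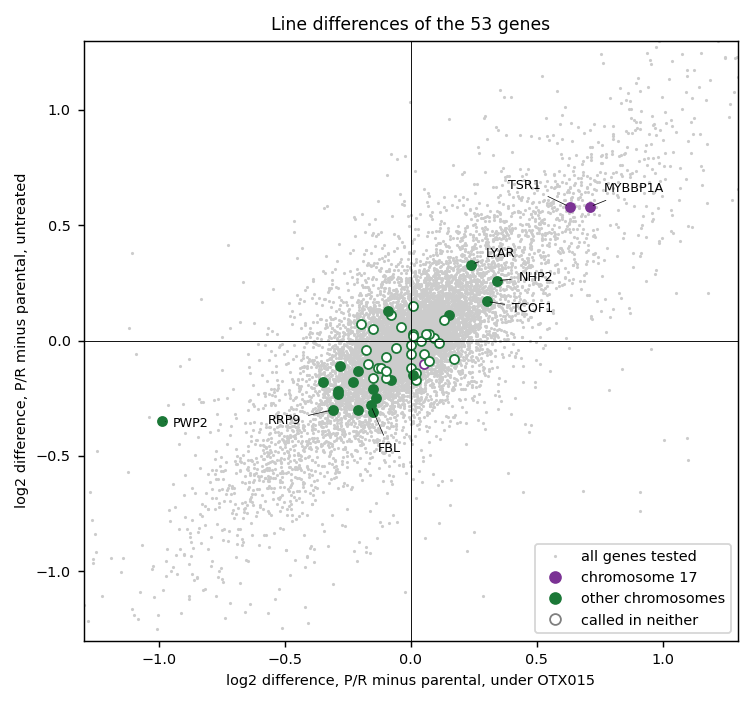
Log2 difference of P/R minus parental cells under OTX015 (x axis) and untreated (y axis) for the 53 genes over all tested genes in grey, some of which lie beyond the axes. Filled points were called in at least 1 state, and those of chromosome 17 are in purple; MYBBP1A and TSR1 stand at the upper right with differences of 0.58 untreated.

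Other genes of the same pathway were counted in the same fit. Of 123 further assembly and RNA polymerase I genes, 58 fell in P/R cells (47.2%) and 5 rose (4.07%). In parental cells 66 fell (53.7%) and 6 rose (4.88%), and the medians were -0.18 in P/R and -0.2 in parental cells. Of all tested genes, 21.8% fell and 22.5% rose in P/R cells, and 24.7% fell and 25.7% rose in parental cells. Small subunit factors fell in 25 of 42 cases in each line (59.5%). Large subunit factors fell in 22 of 45 cases in P/R (48.9%) and 25 of 45 in parental cells (55.6%). The snoRNP and exosome genes fell in 7 of 21 cases in P/R (33.3%) and 12 of 21 in parental cells (57.1%). The large subunit factor BRIX1 had the lowest log2 change of the 123, -0.85 in P/R cells and -0.91 in parental cells. It had 28.4 ± 3.5 FPKM with OTX015 and 51.7 ± 0.431 FPKM untreated in P/R cells, and 28.3 ± 1.41 FPKM with OTX015 and 54.2 ± 5.07 FPKM untreated in parental cells (SD, n = 2 each). EMG1, a methyltransferase of the small subunit precursor, had log2 changes of -0.72 (P/R) and -0.81 (parental), and both were called.

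Of the other RNA polymerase I genes, 4 of 15 were lower (26.7%) in each line, beside 21.8% (P/R) and 24.7% (parental) of all tested genes. In each line 1 was higher (6.67%), beside 22.5% (P/R) and 25.7% (parental) of all tested genes. The list includes POLR2E, POLR2F, POLR2H, POLR2K and POLR2L, subunits shared with other RNA polymerases, and none of these fell. The 4 falls were all among the rest of the list. The subunit CD3EAP fell (log2 change -0.57 in P/R cells and -0.41 in parental cells), as did UBTF, which organizes ribosomal DNA promoters (-0.16 and -0.17), TAF1A (-0.36 and -0.31) and ZNRD1 (-0.2 and -0.41). TTF1, TAF1B, TAF1C, TAF1D and POLR1D were not called. POLR2L, a subunit shared by all nuclear RNA polymerases, rose by 0.4 in P/R cells and by 0.42 in parental cells. Of 12 RNA polymerase III genes, 4 fell (33.3%) and 2 rose (16.7%) in each line. Of all tested genes, 21.8% fell and 22.5% rose in P/R cells, and 24.7% fell and 25.7% rose in parental cells. The rises were those of MAF1, a repressor of that polymerase (0.29 in P/R cells and 0.33 in parental cells), POLR3B in P/R cells (0.22) and BRF1 in parental cells (0.28). None of the 123 genes and none of the 12 passed the test of the difference between the lines.

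**Figure D5:**
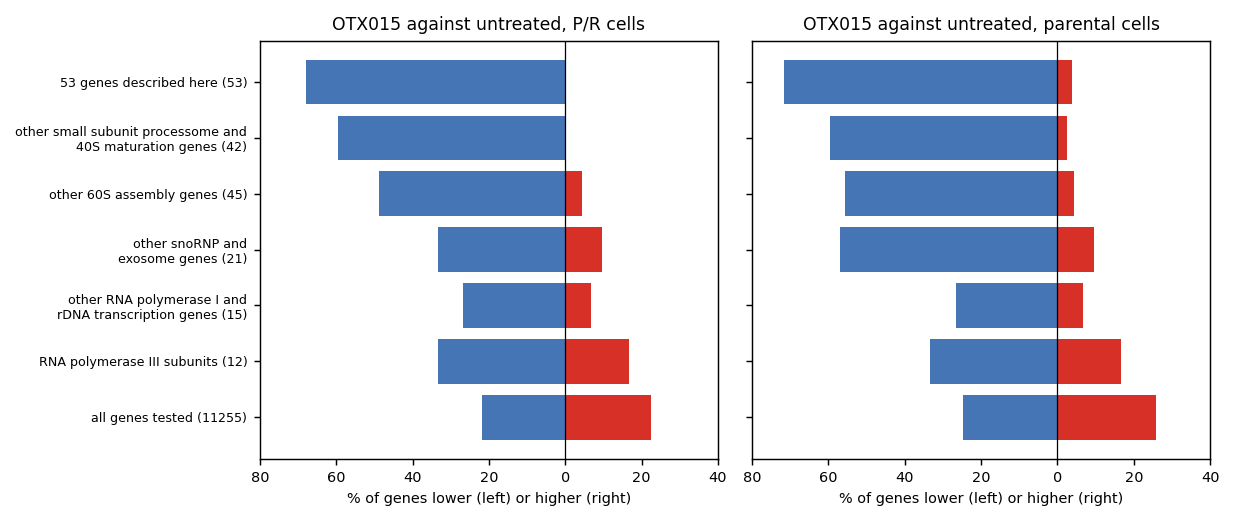
Share of genes, in percent, lower (left of 0) or higher (right of 0) under OTX015 in each line, for the 53 genes, the further pathway lists and all tested genes. The 53 genes reach 67.9% lower in P/R cells and 71.7% in parental cells, beside 21.8% and 24.7% of all tested genes. The other RNA polymerase I genes, a list that includes subunits shared with other polymerases, stay at 26.7% in both.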

How the data were processed

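Messenger RNA was measured in 8 libraries of 2 cell lines. The authors deposited 1 table of 19718 coding genes whose values are taken to be FPKM. Its header names no unit, which was inferred from the values and from the tools: TopHat2 2.0, Cufflinks 2.0 and hg19 as the genome build, all per the submitters' processing notes. Once sorted, values of different libraries agree to 0.136% where the mean is 1 FPKM or more, so the deposited values are quantile normalized. Genes of equal rank then share values, and 6 of the 53 genes have equal values in 2 or more libraries. Annotation, strandedness and any poly(A) selection were not given in the sources used here.

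All 53 symbols were found. Groups and replicates came from the labels' titles. Cells were treated independently, per the labels. Values were transformed to log2(FPKM + 1), and the 11255 genes reaching 1 FPKM in 2 or more libraries were fitted in limma 3.58.1 (R 4.3.3) as 4 group means, with eBayes and a variance trend (4 residual and 5.23 prior degrees of freedom). Tests are two-sided, with Benjamini-Hochberg adjustment across the 11255 genes and a threshold of 0.05. Percent falls and ratios are of mean FPKM. The fit was tested on simulated data. The members and lists were chosen with earlier results of these data known, so no list was tested and counts are set beside the share of all tested genes. Genes given with every library's value include, for each role, those with the largest and smallest parental change, the largest called line differences, the rises and the 3 most abundant; other members were added to fill in each role.

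Promoter windows came from a RefSeq table of GRCh38.p14, and gene order and pseudogene names from GENCODE v29. POLR3C and POLR3GL are not analysed here. The settings varied were the pseudocount (0.1 or 5), the filter (none, or a mean of 5 FPKM), the variance trend (none), the centring (by the median), the libraries in the fit (those of the groups compared, or all but 1), a replicate block, and a minimum log2 change of 0.3. A crossed block was added after the data were seen.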

Additional observations from a re-analysis of the deposited data

Results flagged for a closer look

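NOLC1 drew attention because its libraries moved in opposite directions in the lines. Both OTX015 libraries of P/R cells were below both untreated ones (127 and 132 FPKM against 135 and 133 FPKM), while both OTX015 libraries of parental cells were above both untreated ones (138 and 136 FPKM against 123 and 125 FPKM). The difference of the responses was -0.19 on the log2 scale and did not pass limma's test (adjusted p = 0.349).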

How the results depend on the processing

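The counts of falling genes under OTX015 kept within 1.5 times of the reported 36 (P/R) and 38 (parental) under every alternative run, at 28 to 36 and 26 to 39, and the medians stayed at -0.35 to -0.29 and -0.32 to -0.27. Of 107 called results for single genes, 66 stayed called throughout, 41 were lost in at least 1 fit without a library, and none reversed. The count of 2 genes higher in parental cells became 1 with no variance trend, 1 at a log2 change of at least 0.3 and 0 to 2 on leaving out a library, not always of the same genes: without the first treated parental library NOLC1 and PWP2 were lost, and NOP56 and RRP1B were called. Of P/R against parental cells, the 5 genes higher untreated became 3 at that size. The 10 lower untreated became 6 with no variance trend, 3 at that size and 3 to 10 without a library, and the 10 lower under OTX015 became 5 with no filter, 6 with no variance trend, 6 with only the groups compared, 3 at that size and 3 to 9 without a library. The causes were not tested. Log2 changes that were not called and changed sign on leaving out a library ranged, in P/R cells, over -0.06 to 0.03 (POLR1A), -0.07 to 0.05 (POLR1E), -0.02 to 0.01 (FBL), -0.01 to 0.08 (NOP56) and -0.11 to 0.41 (PWP2), and in parental cells over -0.12 to 0.02 (POLR1A), -0.01 to 0.1 (POLR1E), -0.05 to 0 (RCL1) and -0.1 to 0.05 (NOP2).

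Replicate numbers did not pair the libraries: same-numbered libraries had correlations of -0.12 to 0.1 in their deviations over 6 pairs of groups. With the replicate block 36 genes fell in P/R cells and 39 in parental cells, 7 were lower in untreated P/R than in untreated parental cells and 9 under OTX015. The 2 OTX015 groups gave -0.12, and with their numbers crossed the counts were 36, 39, 8 and 9. Depth is unknown.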
